A study of Mus musculus with 5 samples.

Results

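The cells described here are granzyme C-F high noncycling CD8 T cells from mouse B16-F10 melanoma, a transplanted mouse skin tumor line, here grown under the skin. They were selected on their transcripts. A cell barcode was a member if at most 10% of its unique molecular identifiers (UMIs, each standing for 1 captured RNA molecule) were mitochondrial, and if it held at least 1 UMI of Cd3e, Cd3d and Cd3g together and at least 2 UMIs of Cd8a and Cd8b1 together. It also had 0 UMIs of Cd4 and 0 of Csf1r, C1qa and Cd79a, fewer than 2 UMIs of the proliferation genes Mki67 and Top2a together, and at least 3 UMIs of Gzmc, Gzmd, Gzme and Gzmf together. Of 37468 barcodes, 37074 passed the mitochondrial limit, 13173 of these were CD8 T cells by the lineage genes, 8890 of the CD8 T cells were noncycling and 1865 were members. The other 7025 noncycling CD8 T cells, with 0 to 2 granzyme C-F UMIs, are called granzyme C-F low.

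The study sorted live CD45+ cells from digested tumors and profiled them with a 5' droplet kit. Mice had received 500000 B16-F10 cells under the skin, and tumors were taken on day 11. The 5 libraries are 5 treatments: fusion (a protein joining anti-PD1 and IL15), combination (IL15 and anti-PD1 given together; another label calls its IL15 component the superagonist), IL15 superagonist, anti-PD1, and PBS, the vehicle. All groups carried the same tumor, and the labels name no engineered allele, strain or sex. The labels place the treatments after resection and give no interval, and neither the number of mice pooled in a library nor their age is stated by the sources. Each treatment is 1 library, so treatment cannot be told apart from tumor, mouse, sort or library, and no test between treatments was possible.

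Granzymes are serine proteases that cytotoxic lymphocytes store in lytic granules and release onto target cells, where perforin lets them enter. Granzymes A and B are the well studied members in mouse and human. Granzymes C, D, E, F and G are closely related rodent genes in the same cluster as granzyme B. These genes are known in mouse T cells and NK cells after strong or prolonged stimulation by antigen or cytokines such as IL-2 and IL-15. IL-15 signals through the IL-2 receptor beta and gamma chains to STAT5, and PD-1 restrains activated T cells.

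In the GENCODE annotation of GRCm38, Gzme (56117626 to 56120625), Gzmd (56129556 to 56132608), Gzmf (56205263 to 56211417) and Gzmc (56231441 to 56234656) lie on the minus strand of chromosome 14 within 117 kb. Gzmg (56156582 to 56159579) and Gzmn (56165797 to 56174599) lie between Gzmd and Gzmf, and Gzmb (56258838 to 56262260) lies next to Gzmc. The windows around the starts are shown because the genes are close copies there. The RefSeq windows (GRCm38.p6, 250 bases before to 50 after each start) of the 4 genes were 86.1 to 94.0% identical over 6 pairs. Those of Gzmg with the 4 were 86.8 to 90.1% identical. The same comparison gave 54.2 to 61.2% for Gzmb and 60.7 to 64.5% for Gzmn. Most of each window lies before the start, outside the transcript, so these identities do not measure how alike the reads of the genes are. The stretches from 200 to 91 bases before each start follow, 110 bases each on the minus strand, at chr14:56234748-56234857 for Gzmc, chr14:56132684-56132793 for Gzmd, chr14:56120716-56120825 for Gzme and chr14:56211498-56211607 for Gzmf. Capitals mark the Runx motif, TGTGGT, read on either strand (ACCACA on the other).
Gzmc: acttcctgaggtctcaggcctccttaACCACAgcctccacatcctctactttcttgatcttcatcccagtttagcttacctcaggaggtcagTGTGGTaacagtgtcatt
Gzmd: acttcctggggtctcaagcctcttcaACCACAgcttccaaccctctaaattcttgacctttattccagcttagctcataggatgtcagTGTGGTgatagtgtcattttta
Gzme: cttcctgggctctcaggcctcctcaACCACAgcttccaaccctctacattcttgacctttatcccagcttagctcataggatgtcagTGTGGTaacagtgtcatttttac
Gzmf: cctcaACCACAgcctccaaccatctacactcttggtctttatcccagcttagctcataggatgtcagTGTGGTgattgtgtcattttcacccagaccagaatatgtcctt
All 4 genes, and Gzmg, held 1 match in each direction. The matches started 62 bases apart in Gzmd, Gzme, Gzmf and Gzmg and 66 bases apart in Gzmc. Of 32851 windows of this length, 16.8% held the motif and 0.767% held it in both directions. The AP-1 motif TGANTCA (7.81% of windows) and the STAT motif TTCNNNGAA (8.3%), searched on both strands, had no match in the windows of Gzmc, Gzmd, Gzme and Gzmf, and the T-box motif AGGTGT (13.7%) matched in those of Gzmc and Gzme. The matches did not overlap. A match describes these letters and is not evidence of binding.

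The libraries held 6015 to 8747 barcodes and a median of 4279 to 7851 UMIs per barcode. The members' summed UMIs were 13610313 in fusion, 1732496 in combination, 1008643 in IL15 superagonist, 514565 in anti-PD1 and 193489 in PBS, so PBS values carry the largest counting error. The PBS library stood apart in its T-cell receptor reads: its members had 0.22 UMIs of Trbv segments per UMI of the Trbc genes, against 1.42 to 3.77 in the members of the other 4 libraries. The counts that lead each class comparison are therefore given with and without PBS. Between 61 and 104 barcodes were shared by each pair of libraries, 774 of 36688 distinct barcodes occurred in at least 2 libraries, and 1 barcode of a member was among them.

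Members carried the markers of CD8 T cells, which the selection itself asked for through the Cd3 and Cd8 genes. Cd8a had a UMI in 96.9% of fusion, 98.9% of combination, 97.3% of IL15 superagonist, 96.1% of anti-PD1 and 95.2% of PBS members. Serpine2, given as a marker although the selection did not use it, had a UMI in 48.2 to 66.7% of members. B-cell markers summed to 0 or 1 UMI per library, with Cd79a at 0 through the selection, and red-cell globins did so too. Foxp3, the factor of regulatory T cells, had 9 UMIs in fusion, 4 in combination, 7 in IL15 superagonist and 0 in anti-PD1 and PBS members. CPM denotes a gene's share of the UMIs of a class, scaled to a common library total. The 7 myeloid markers summed to 25.8 to 50.2 CPM in members and 38.2 to 128 CPM in granzyme C-F low cells, with Csf1r and C1qa at 0 through the selection. The 4 NK markers summed to 7.77 to 67.4 CPM in members and 5.48 to 42.3 CPM in low cells. A UMI of them was held by 3.92 to 30.3% of members and 1.23 to 12.3% of low cells, both highest in fusion. The 4 gamma-delta T-cell markers summed to 35.7 to 62.3 CPM in members and 30.5 to 71.2 CPM in low cells. They had a UMI in 19.0 to 34.6% of members and 10.1 to 20.9% of low cells. Members held more UMIs per cell, as given below. The 4 melanoma markers summed to at most 4.96 CPM in members and 4.48 CPM in low cells.

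Members were far more frequent among noncycling CD8 T cells of the fusion library than in the other 4 libraries. There were 1498 of 3088 cells in fusion (48.5%, exact 95% interval 46.7 to 50.3), 185 of 2706 in combination (6.84%, 5.91 to 7.85) and 110 of 1631 in IL15 superagonist (6.74%, 5.58 to 8.07). There were 51 of 792 in anti-PD1 (6.44%, 4.83 to 8.38) and 21 of 673 in PBS (3.12%, 1.94 to 4.73). The fusion interval lay apart from the other 4, and those of combination, IL15 superagonist and anti-PD1 overlapped. Fusion supplied 80.3% of all members. These Clopper-Pearson intervals, like every interval below, cover counting error only, since UMIs and cells of 1 library are not replicates.

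Cells were selected at a fixed number of UMIs, so depth bears on the shares. Members had a median of 8544, 8319, 8729.5, 8993 and 8836 UMIs per cell in the fusion, combination, IL15 superagonist, anti-PD1 and PBS libraries, against 5511.5, 4606, 4306, 4912 and 4594.5 UMIs in low cells. With every cell thinned to 2000 UMIs, which left out 30 shallower cells (29 of them in PBS), the shares were 36.4% in fusion (34.7 to 38.1), 4.18% in combination (3.45 to 5.00), 4.66% in IL15 superagonist (3.69 to 5.80), 2.90% in anti-PD1 (1.85 to 4.33) and 1.86% in PBS (0.966 to 3.23). The thinned fusion share again lay above the others, and the thinned intervals of anti-PD1 and PBS overlapped. Free RNA can also give granzyme UMIs: of myeloid or B cells, which should lack these genes, 44.1% in fusion had at least 1 granzyme C-F UMI at a median depth of 6547 UMIs, but 2.30% (9 of 392) had at least 3, against 0.194% (3 of 1543) in PBS at 5399 UMIs. Among cycling CD8 T cells, 64.4% were granzyme C-F high in fusion, 23.7% in combination, 35.6% in IL15 superagonist, 19.0% in anti-PD1 and 8.47% in PBS, at the higher median depth of 13496 to 18999 UMIs in those that were high.

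**Figure D1:**
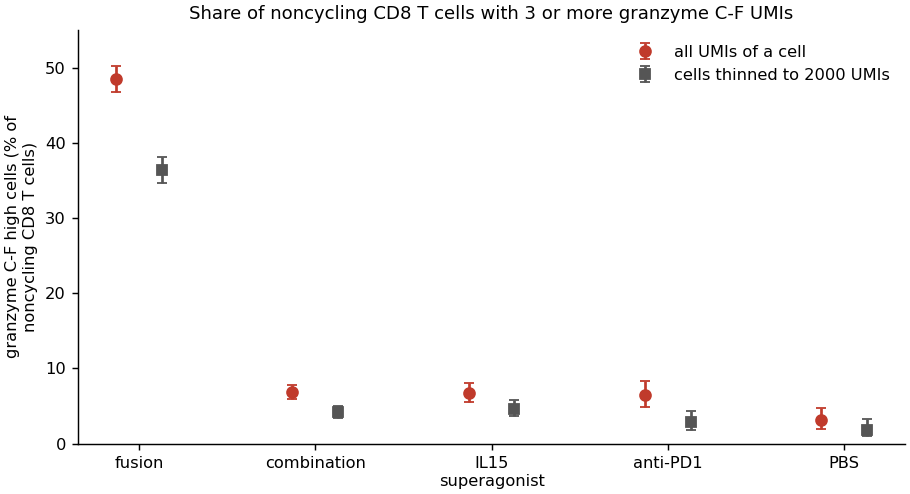
Share of noncycling CD8 T cells with at least 3 granzyme C-F UMIs in each library (y axis, percent), from all UMIs of a cell (circles) and after thinning each cell to 2000 UMIs (squares), with exact 95% intervals of counting error. Fusion lies at 48.5% before and 36.4% after thinning, and the other 4 libraries lie at or below 6.84%.

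The 4 selecting genes themselves are described without a test. Members held a median of 35 granzyme C-F UMIs in fusion, 14 in combination, 15.5 in IL15 superagonist, 9 in anti-PD1 and 13 in PBS, with maxima of 2915, 486, 546, 292 and 455. At the limit, 331 noncycling CD8 T cells had 2 UMIs and were left out and 159 had 3 and were members. Over all libraries 71.2% of members had at least 10 UMIs and 421 had at least 100, 385 of these in fusion. The share with at least 10 was 74.3% in fusion, 60.5% in combination, 60.9% in IL15 superagonist, 47.1% in anti-PD1 and 52.4% in PBS. Granzyme C-F UMIs were 1.08% of all UMIs of fusion members, 0.412% of combination, 0.506% of IL15 superagonist, 0.295% of anti-PD1 and 0.669% of PBS members. They were unevenly spread, since the tenth of members with most granzyme held 54.1 to 57.1% of them in the 4 treated libraries and 70.3% (2 cells) in PBS.

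Gzmf and Gzmc led in most members, and Gzmd and Gzme mostly accompanied them. Gzmf had the most UMIs of the 4 in 60.01% of fusion, 65.4% of combination, 48.2% of IL15 superagonist, 47.1% of anti-PD1 and 47.6% of PBS members. Gzmc led in 28.2% of fusion, 21.1% of combination, 36.4% of IL15 superagonist, 39.2% of anti-PD1 and 38.1% of PBS members. Gzmd led in at most 6.36% and Gzme in at most 9.80% of the members of any library. All 4 genes were detected together in 36.8% of fusion, 15.1% of combination, 21.8% of IL15 superagonist, 9.80% of anti-PD1 and 23.8% of PBS members, which also follows from their UMI numbers per cell. Reads of such close copies can be split or dropped by a counter, how shared reads were counted is not stated by the sources, and the division among the 4 is therefore uncertain.

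Summed over members, Gzmf stood at 5968 CPM in fusion, 2159 CPM in combination, 1850.0 CPM in IL15 superagonist, 1094 CPM in anti-PD1 and 3096 CPM in PBS. Gzmc stood at 2699.6, 996, 2219.8, 1456 and 1985 CPM in fusion, combination, IL15 superagonist, anti-PD1 and PBS. In the same libraries Gzmd stood at 1196, 393, 492, 154 and 966 CPM and Gzme at 961, 574, 499.7, 249 and 646 CPM, below Gzmf and Gzmc in each. Fusion had the highest level of each of the 4, and PBS members, few as they were, had more Gzmd and Gzmf than those of combination, IL15 superagonist or anti-PD1. These are 5' UMI counts, which are not scaled by transcript length.

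**Figure D2:**
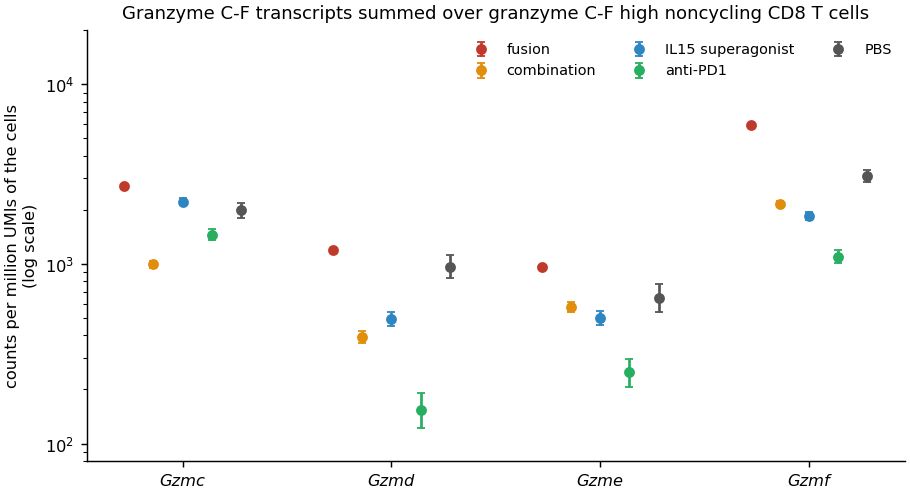
CPM of Gzmc, Gzmd, Gzme and Gzmf summed over the members of each library (log scale), with exact Poisson 95% intervals that cover counting error only. Gzmf is the highest of the 4 in fusion (5968 CPM), combination and PBS, and Gzmc is the highest in IL15 superagonist (2219.8 CPM) and anti-PD1 (1456 CPM).

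Members were then compared with the granzyme C-F low cells of the same library, to see what else marked them. UMIs were summed per library and class, and edgeR's quasi-likelihood test with the library as a block was run over 9461 genes, leaving out the 15 genes of the selection. In this test 722 genes were higher in members (7.63% of those tested) and 951 were lower (10.1%), at an adjusted p under 0.05. The median log2 fold change over all genes was -0.01. Runs of 5 values are those of fusion, combination, IL15 superagonist, anti-PD1 and PBS. Without the PBS library the counts were 811 higher and 893 lower, and without the combination library they were 400 higher and 614 lower. The 20 leading genes and Serpine2, Gzmb, Irf8, Ccl5, Gzma and Gzmk, 26 in all, were each also called without PBS, with log2 fold changes shifted by -0.23 to 0.15. Depth per cell differed between the classes, as given above. With cells thinned to 2000 UMIs, 211 of 8044 genes were higher and 379 lower. The cycling limit was there applied to the thinned UMIs, so cycling cells entered the noncycling classes, with 1999 cells in the fusion member class. With that limit kept on all UMIs, an alternative chosen after seeing the data, that class held 1124 cells. In this run 138 of 7524 genes were higher and 289 lower.

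Among granule genes, members had more perforin, granzyme B and granzyme G and less granzyme K and granzyme A than low cells. Gzmg, a granzyme of the same cluster that the selection did not use, stood at 199, 17.9, 31.7, 5.83 and 72.4 CPM in members of fusion, combination, IL15 superagonist, anti-PD1 and PBS, against 1.55, 0.805, 1.45, 0 and 0 CPM in their low cells. Members were above low cells in each library, by a log2 fold change of 6.06 (edgeR adjusted p = 1.11e-08; mean ± SD of the library log2 ratios 6.13 ± 1.90, n = 5). Gzmg and the selecting granzyme genes are closely related, so reads misassigned among these genes could contribute, and this was not tested. Only the values of fusion, combination and IL15 superagonist rest on UMIs in both classes. In anti-PD1, low cells had 0 UMIs against 3 in members. In PBS the level was at least 79.3-fold higher (14 against 0 UMIs). All 14 came from the 2 PBS members with at least 100 granzyme C-F UMIs. The fitted fold change and the mean therefore depend on the prior count and are no bound.

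Prf1, encoding perforin, stood at 485, 739, 586, 863 and 357 CPM in members of fusion, combination, IL15 superagonist, anti-PD1 and PBS, against 211, 213, 132, 326 and 144 CPM in their low cells. Gzmb stood at 5482, 3814, 2584, 3656 and 1189 CPM in members and 2805, 1317, 1150.2, 1303 and 661 CPM in low cells of the libraries in that order. Both genes were higher in members in 5 of 5 libraries, with log2 fold changes of 1.61 (edgeR adjusted p = 5.23e-08; mean ± SD of the library log2 ratios 1.57 ± 0.39, n = 5) for Prf1 and 1.23 (edgeR adjusted p = 5.90e-08; mean ± SD of the library log2 ratios 1.20 ± 0.31, n = 5) for Gzmb. Gzmk, a granzyme of memory-like CD8 T cells, stood at 119, 84.3, 77.3, 50.5 and 41.3 CPM in members and 249.6, 365, 278, 198 and 153 CPM in low cells, lower in members of every library (log2 fold change -1.66, edgeR adjusted p = 7.94e-07). Gzma stood at 1142, 269, 823, 83.6 and 10.3 CPM in members and 1395, 1280.4, 1103, 259 and 66.3 CPM in low cells, also lower in members of each (log2 fold change -1.07, edgeR adjusted p = 0.00332). Of 18 granule and cytotoxic partner genes tested, 5 were higher in members (Gzmg, Prf1, Gzmb, Cst7 and Rab27a) and 4 were lower (Gzmk, Gzma, Lamp1 and Fasl), with a median log2 fold change of -0.03 against -0.01 for all genes.

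Protease inhibitors were mostly higher. Serpinb9b, a relative of the granzyme B inhibitor Serpinb9, stood at 58.0, 77.3, 157, 107 and 248 CPM in members of fusion, combination, IL15 superagonist, anti-PD1 and PBS, against 8.25, 17.6, 18.6, 20.3 and 6.996 CPM in their low cells. The members' lowest level lay above the low cells' highest, and the log2 fold change was 2.88 (edgeR adjusted p = 4.00e-07; mean ± SD of the library log2 ratios 3.11 ± 1.19, n = 5). Serpine2, encoding the secreted serpin protease nexin-1, stood at 344, 241, 502, 225 and 202 CPM in members and 186, 90.9, 78.0, 89.9 and 135 CPM in low cells (log2 fold change 1.45, edgeR adjusted p = 5.92e-05). Serpinb9 itself stood at 493, 538, 725, 515 and 393 CPM in members and 417, 429, 422, 324 and 234 CPM in low cells, a smaller difference (log2 fold change 0.55, edgeR adjusted p = 0.000199). Of 11 inhibitor genes tested, 7 were higher and 1, Serpinb1a, was lower in members, with a median log2 fold change of 0.33. Thinning to 2000 UMIs left 4 higher and 1 lower, and Serpinb6b was among the calls lost.

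**Figure D3:**
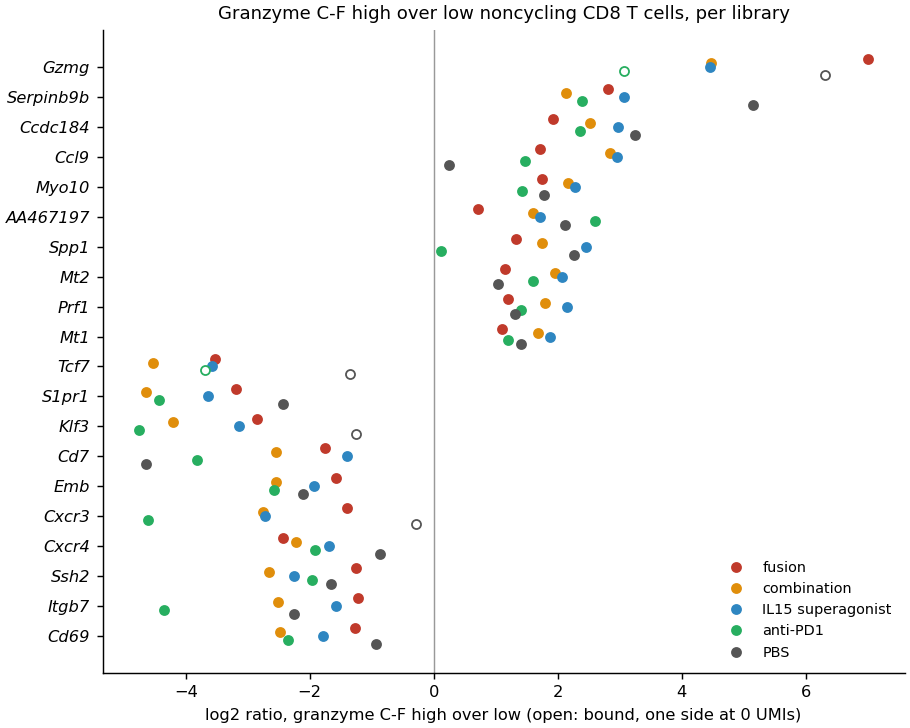
Log2 ratio of CPM in members over granzyme C-F low cells for the 10 higher and 10 lower leading genes, 1 point per library (open points mark a bound where a class had 0 UMIs). Gzmg, Serpinb9b and Ccdc184 have the largest fitted fold changes on the higher side and Tcf7, S1pr1 and Klf3 on the lower side, and each leading gene lies on 1 side in all 5 libraries.

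The other leading higher genes were of several kinds. Ccdc184, a gene of little known function, stood at 17.6, 47.9, 108, 73.8 and 165 CPM in members and 4.64, 8.34, 13.7, 14.3 and 17.3 CPM in low cells (log2 fold change 2.61, edgeR adjusted p = 1.99e-08), and Myo10, an unconventional myosin of filopodia, stood at 71.9, 83.1, 70.4, 68.0 and 93.0 CPM in members and 21.5, 18.6, 14.5, 25.4 and 27.1 CPM in low cells (log2 fold change 1.93, edgeR adjusted p = 2.48e-08). The metallothionein genes Mt1 and Mt2, which bind zinc, were both higher: Mt1 stood at 1079, 573, 746, 571 and 589 CPM in members and 502, 179, 204, 249 and 223 CPM in low cells (log2 fold change 1.47, edgeR adjusted p = 2.78e-08), and Mt2 had a log2 fold change of 1.62 (edgeR adjusted p = 5.27e-07). AA467197 had one of 1.67 (edgeR adjusted p = 1.12e-05). The chemokine gene Ccl9 stood at 18.3, 161, 139.8, 93.3 and 20.7 CPM in members and 5.57, 22.5, 18.0, 33.5 and 17.3 CPM in low cells, with near-equal values in the 2 classes of PBS (log2 fold change 2.29, edgeR adjusted p = 1.76e-06). Spp1, encoding the secreted protein osteopontin, stood at 525, 181, 1013, 204 and 915 CPM in members and 209, 53.7, 184, 187 and 191 CPM in low cells, and in anti-PD1 the 2 classes were close (log2 fold change 1.65, edgeR adjusted p = 3.95e-05).

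Genes of stem-like and memory T cells were lower in members as a group. Tcf7, the transcription factor TCF-1 of naive and stem-like T cells, stood at 2.57, 3.46, 9.91, 0 and 0 CPM in members of fusion, combination, IL15 superagonist, anti-PD1 and PBS, against 29.7, 80.1, 118, 74.9 and 39.5 CPM in their low cells. The highest member level lay below the lowest low-cell level, and the log2 fold change was -3.83 (edgeR adjusted p = 4.04e-09; mean ± SD of the library log2 ratios -4.33 ± 1.15, n = 5). Of 16 genes of the list tested, 0 were higher and 15 were lower, the exception being Txk, with a median log2 fold change of -1.39. They include Slamf6, a receptor gene of stem-like T cells (log2 fold change -2.57, edgeR adjusted p = 1.34e-05), the IL-7 receptor gene Il7r (log2 fold change -1.10, edgeR adjusted p = 0.00106) and the survival gene Bcl2 (log2 fold change -0.96, edgeR adjusted p = 0.000433). Xcl1, a chemokine gene of the list, lost its call without PBS and under several other alternatives. Without PBS the list had 0 higher and 15 lower of 17 tested, and after thinning with the cycling limit kept on all UMIs it had 0 higher and 15 lower.

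Trafficking genes followed in the same direction for 8 of 18 tested, while 3 were higher (median log2 fold change -0.09). S1pr1, the receptor that lets T cells leave tissue for lymph, stood at 1.98, 3.46, 9.91, 1.94 and 5.17 CPM in members and 18.1, 86.2, 124, 42.1 and 28.0 CPM in low cells (log2 fold change -3.61, edgeR adjusted p = 4.04e-09). Cxcr3, a receptor for interferon-induced chemokines, stood at 28.0, 14.4, 13.9, 1.94 and 0 CPM in members and 73.8, 97.4, 91.8, 47.6 and 18.9 CPM in low cells (log2 fold change -2.01, edgeR adjusted p = 8.42e-06), and Cxcr4 stood at 7.35, 36.4, 54.5, 40.8 and 119 CPM in members and 39.8, 169, 177, 154 and 217 CPM in low cells (log2 fold change -1.94, edgeR adjusted p = 2.49e-07). Cd69, an early activation and tissue retention gene, stood at 44.2, 28.3, 48.6, 23.3 and 20.7 CPM in members and 106, 158, 168, 118 and 39.2 CPM in low cells (log2 fold change -1.75, edgeR adjusted p = 1.76e-06). All 4 were lower in members of each library. The integrin gene Itgb7 (log2 fold change -1.76, edgeR adjusted p = 1.46e-05) was lower too. The remaining leading lower genes were Klf3, a zinc finger repressor (log2 fold change -3.33, edgeR adjusted p = 1.99e-08), the surface protein genes Cd7 (log2 fold change -2.09, edgeR adjusted p = 2.04e-06) and Emb (log2 fold change -2.04, edgeR adjusted p = 3.22e-08), and the phosphatase gene Ssh2 (log2 fold change -1.88, edgeR adjusted p = 1.76e-06).

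Transcription factor genes moved in both directions. Irf8, an interferon regulatory factor induced in activated CD8 T cells, stood at 592, 794, 676, 744 and 817 CPM in members of fusion, combination, IL15 superagonist, anti-PD1 and PBS, against 265, 288, 258, 315 and 317 CPM in their low cells. Member and low levels did not overlap, and the log2 fold change was 1.34 (edgeR adjusted p = 4.02e-09; mean ± SD of the library log2 ratios 1.33 ± 0.12, n = 5). Bach2, a repressor that holds back effector genes, stood at 4.11, 9.24, 19.8, 5.83 and 10.3 CPM in members and 18.4, 36.6, 47.2, 26.6 and 29.5 CPM in low cells (log2 fold change -1.86, edgeR adjusted p = 1.76e-06). Eomes (log2 fold change -1.07, edgeR adjusted p = 6.19e-05) and Maf (log2 fold change -1.61, edgeR adjusted p = 1.00e-04) were lower, and Id2 (log2 fold change 0.54, edgeR adjusted p = 0.000944) and Tbx21, encoding T-bet (log2 fold change 0.50, edgeR adjusted p = 0.00254), were higher, the last a call lost on thinning. In all, 5 of 21 factor genes were higher and 6 lower (median log2 fold change 0.10).

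Inhibitory receptor genes did not move as a group, with 3 of 16 higher, 4 lower and a median log2 fold change of 0.02. Pdcd1, encoding PD-1, the target of anti-PD1, stood at 962, 758, 767, 544 and 331 CPM in members and 938, 547, 533, 565 and 397 CPM in low cells and missed the threshold (log2 fold change 0.20, edgeR adjusted p = 0.158). So did Lag3 (log2 fold change 0.07, edgeR adjusted p = 0.816) and Ctla4 (log2 fold change -0.03, edgeR adjusted p = 0.91). Havcr2, encoding TIM-3, stood at 101, 137, 108, 194 and 114 CPM in members and 68.8, 63.4, 54.1, 116 and 98.6 CPM in low cells and was higher in members of each library (log2 fold change 0.80, edgeR adjusted p = 6.82e-05). Cd244 was higher (log2 fold change 0.97, edgeR adjusted p = 0.000386) and Tigit was lower (log2 fold change -0.50, edgeR adjusted p = 0.00696), the Tigit call lost without the anti-PD1 library. Tnfrsf9, encoding the costimulatory receptor 4-1BB, was higher as well (log2 fold change 0.70, edgeR adjusted p = 0.000773). Of 12 costimulatory receptor genes tested, 2 were higher and 3 lower (median log2 fold change -0.20).

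Ccl5, a chemokine gene of memory and effector T cells, was the most abundant of the genes lower in members among those named. It stood at 2467, 9264, 5749, 2995 and 4124 CPM in members of fusion, combination, IL15 superagonist, anti-PD1 and PBS, against 6900.0, 15152, 11956, 9714 and 10669 CPM in their low cells. The log2 fold change was -1.24 (edgeR adjusted p = 1.87e-07; mean ± SD of the library log2 ratios -1.26 ± 0.39, n = 5). Of 18 cytokine and chemokine genes, 6 were higher and 4 lower (median log2 fold change 0.44). Areg, encoding amphiregulin, stood at 102, 233, 117, 653 and 165 CPM in members and 48.0, 70.6, 36.8, 306 and 137 CPM in low cells (log2 fold change 1.27, edgeR adjusted p = 9.39e-06). Csf1 (log2 fold change 1.03, edgeR adjusted p = 0.000123) and Penk, the proenkephalin gene (log2 fold change 0.96, edgeR adjusted p = 0.000166), were also higher, while Ifng, encoding interferon gamma, missed the threshold (log2 fold change 0.41, edgeR adjusted p = 0.0613).

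Interferon response genes were lower in members for 16 of 21 tested, with 1, Ifitm2, higher and a median log2 fold change of -0.97. Ifi27l2a stood at 169, 178, 220.1, 332 and 305 CPM in members of fusion, combination, IL15 superagonist, anti-PD1 and PBS, against 662, 490.2, 744, 1086 and 1048 CPM in their low cells, with no overlap between the classes (log2 fold change -1.72, edgeR adjusted p = 1.45e-09), and Irf7, a central factor of that response, was lower as well (log2 fold change -1.28, edgeR adjusted p = 1.56e-05). Without PBS 15 of 21 were lower. Of 11 myeloid marker genes tested, 0 were higher and 4 lower (median log2 fold change -0.90). The MHC class II genes summed to 64.7 CPM in fusion, 1422 CPM in combination, 89.2 CPM in IL15 superagonist, 95.2 CPM in anti-PD1 and 202 CPM in PBS members, against 332, 576, 754, 2087 and 1324 CPM in their low cells. With cells that held markers of other lineages left out, 3 of 20 interferon genes were higher and 14 lower (median log2 fold change -0.92). After thinning with the cycling limit on all UMIs, 10 of 19 were lower and 2 higher. Among the membrane proteins that restrict viral entry, Ifitm2 had a log2 fold change of 0.76 (edgeR adjusted p = 0.015), a call lost with DESeq2 and without the combination or the IL15 superagonist library.

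Glycolysis genes were higher for 10 of 18 tested and lower for 0, with a median log2 fold change of 0.51. Gapdh stood at 688, 786, 741, 1409 and 1416 CPM in members and 608, 528, 456, 958 and 992 CPM in low cells (log2 fold change 0.52, edgeR adjusted p = 6.06e-05), and the glucose transporter gene Slc2a3 (log2 fold change 0.98, edgeR adjusted p = 0.000266) and Tpi1 (log2 fold change 0.83, edgeR adjusted p = 1.11e-05) were higher. Of 29 cell cycle genes other than the selecting pair, 14 were higher and 2 lower (median log2 fold change 0.52), although members hold fewer than 2 UMIs of Mki67 and Top2a by selection. Birc5, encoding the mitotic protein survivin, stood at 78.2, 24.2, 50.6, 79.7 and 41.3 CPM in members and 52.3, 7.54, 7.77, 20.8 and 15.5 CPM in low cells (log2 fold change 1.43, edgeR adjusted p = 0.000303). The cell cycle inhibitor genes split: Cdkn1a (log2 fold change 0.94, edgeR adjusted p = 3.33e-05) and Cdkn2a (log2 fold change 1.14, edgeR adjusted p = 0.000367) were higher and Cdkn1b was lower (log2 fold change -0.97, edgeR adjusted p = 6.78e-06). After thinning with the cycling limit on all UMIs, 7 of 24 cell cycle genes were higher and 2 lower.

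Of 21 genes for receptor chains of IL-2 and IL-15 and for targets of STAT5, 3 were higher and 8 lower (median log2 fold change -0.12). Il2ra, the alpha chain of the IL-2 receptor, stood at 76.0, 92.9, 123, 93.3 and 62.0 CPM in members and 63.6, 62.1, 71.1, 51.3 and 31.9 CPM in low cells (log2 fold change 0.61, edgeR adjusted p = 0.000617), and Il2rb, the chain shared with IL-15, was higher by less (log2 fold change 0.29, edgeR adjusted p = 0.0158), a call lost without the combination or the IL15 superagonist library. Pim1 (log2 fold change -0.74, edgeR adjusted p = 6.47e-05) and Socs3 (log2 fold change -0.90, edgeR adjusted p = 3.38e-05), both induced by STAT signals, were lower. Of 19 T-cell receptor complex and signalling genes, 1 was higher and 11 lower (median log2 fold change -0.33), 4 lower after thinning with the cycling limit on all UMIs. Of 18 oxidative phosphorylation genes, 7 were higher and 1 lower (median log2 fold change 0.20), but 0 higher and 1 lower after the same thinning. Killer lectin and NK receptor genes had 6 higher and 1 lower of 18 (median log2 fold change 0.17), among them Fcer1g, a signalling adaptor gene (log2 fold change 1.16, edgeR adjusted p = 5.08e-05).

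In fusion, levels also ran with the amount of granzyme. Its noncycling CD8 T cells with 0, 1 to 2, 3 to 9, 10 to 29, 30 to 99 and at least 100 granzyme C-F UMIs numbered 815, 775, 385, 334, 394 and 385. Gzmb stood at 2665, 2939, 3925, 4879, 5471 and 6857 CPM over these steps, Prf1 at 189, 232, 337, 402, 437 and 669 CPM and Irf8 at 239.6, 289.7, 400.5, 476, 619 and 764 CPM. All 3 increased at every step. Over the same steps Ccl5 stood at 7568, 6263, 4023, 3045, 2091 and 1415 CPM and Tcf7 at 33.2, 26.4, 6.48, 2.32, 1.11 and 1.34 CPM, with Tcf7 low from the step of 3 to 9 UMIs onward. Pdcd1 was nearly level at 933, 943, 959, 970.3, 982 and 943 CPM. The median UMIs per cell also increased, at 5254, 5847, 6978, 7209.5, 8609.5 and 11431, so depth moves with the steps and its part was not tested.

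In combination the steps held 2308, 213, 73, 57, 37 and 18 cells, and Gzmb stood at 1271, 1714, 2953, 2896, 3571 and 7673 CPM and Prf1 at 206, 278, 587, 699, 749 and 1114 CPM. In IL15 superagonist they held 1317, 204, 43, 27, 27 and 13 cells, and Gzmb stood at 1111, 1377, 1665, 2292, 3373 and 3626 CPM and Prf1 at 119, 207, 323, 448, 598 and 1348 CPM. Prf1 increased at every step in both libraries, and Gzmb did so in IL15 superagonist and at all but 1 step in combination. In anti-PD1, with 700, 41, 27, 13, 8 and 3 cells, Gzmb stood at 1252, 1898, 2122, 4560.2, 3239 and 11038 CPM and Prf1 at 307, 555, 709, 1069, 599 and 1674 CPM, each with a lower value at the step of 30 to 99 UMIs than at the one before. In PBS, with 629, 23, 10, 5, 4 and 2 cells, Gzmb stood at 635, 1107, 941, 1545, 1015 and 1497 CPM and Prf1 at 133, 319, 410.1, 409.6, 89.6 and 428 CPM, with no steady order.

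**Figure D4:**
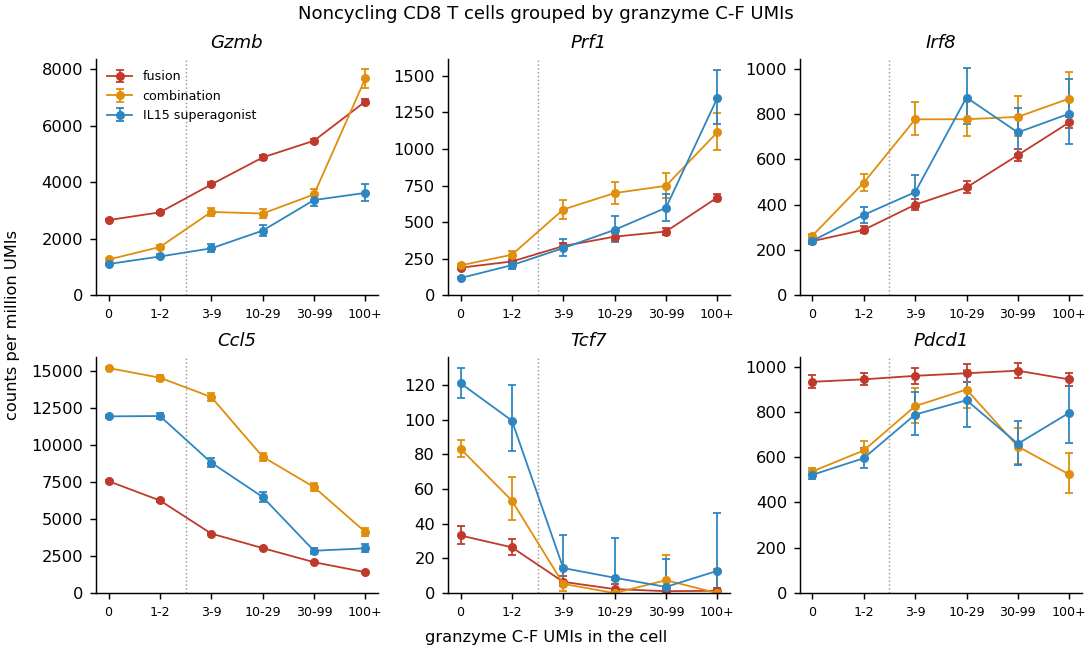
CPM of Gzmb, Prf1, Irf8, Ccl5, Tcf7 and Pdcd1 (y axis) over steps of granzyme C-F UMIs per noncycling CD8 T cell (x axis) in the fusion, combination and IL15 superagonist libraries, with Poisson 95% intervals and a dotted line at the limit of 3 UMIs. In fusion Prf1 and Irf8 increase at every step, Ccl5 declines and Pdcd1 stays near its level.

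Members led by Gzmc and members led by Gzmf were set side by side within libraries, for genes chosen after their values were seen, so the values are a description. In fusion, 422 Gzmc-led and 899 Gzmf-led members had Ifng at 223 against 48.7 CPM, a ratio of 4.59 (4.07 to 5.18), Xcl1 at 399 against 151 CPM, a ratio of 2.65 (2.46 to 2.86) and Ccl3 at 101 against 31.7 CPM, a ratio of 3.18 (2.72 to 3.74). Gzmb, by contrast, stood at 5658 against 5491 CPM, a ratio of 1.03 (1.01 to 1.05). In combination, 39 Gzmc-led and 121 Gzmf-led members had Ifng at 224 against 116 CPM, a ratio of 1.92 (1.47 to 2.52), Xcl1 at 234 against 39.1 CPM, a ratio of 5.99 (4.15 to 8.80) and Ccl3 at 1131 against 359.6 CPM, a ratio of 3.15 (2.75 to 3.60). In IL15 superagonist, with 40 and 53 members, the direction was the other way for Ifng, at 133 against 339 CPM, a ratio of 0.392 (0.283 to 0.536), and for Xcl1, at 515 against 755 CPM, a ratio of 0.682 (0.573 to 0.812), and Ccl3 stood at 413 against 434 CPM, a ratio of 0.952 (0.771 to 1.17). In anti-PD1, with 20 and 24 members, Ifng had a ratio of 1.16 (0.709 to 1.93), Ccl3 one of 0.856 (0.704 to 1.04) and Xcl1 one of 32.4 (8.66 to 272), on 2 UMIs in Gzmf-led members. In PBS, with 8 and 10 members, Ifng had a ratio of 0.189 (0.0339 to 0.716) and Ccl3 one of 0.0640 (0.0227 to 0.147). All 3 cytokine genes were higher in Gzmc-led members in fusion and combination, and in none of the other 3 libraries were all 3 of them higher.

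Members were also compared with the cycling granzyme C-F high CD8 T cells of the same libraries (2302 cells, at least 2 UMIs of Mki67 and Top2a), over 7169 genes. With edgeR, 906 genes were higher in members (12.6%) and 1036 lower (14.5%), with a median log2 fold change of 0.01. Without PBS the counts were 792 and 1059. Without the combination library 527 were higher, and without IL15 superagonist 579. Cycling cells held more UMIs, as given above. With cells thinned to 2000 UMIs 4 of 842 genes tested were higher and 31 lower. The cycling limit was there applied to the thinned UMIs, which left 1 cycling cell in PBS. With the cycling limit kept on all UMIs, an alternative chosen after seeing the data, 102 of 874 genes tested were higher and 105 lower. Of 30 other cell cycle genes, 25 were lower and 2 higher in members, which the selection by Mki67 and Top2a bears on.

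Ccl5 was the leading higher gene, at 2467, 9264, 5749, 2995 and 4124 CPM in members and 849, 3620.1, 2103, 1429.8 and 1314 CPM in cycling cells of fusion, combination, IL15 superagonist, anti-PD1 and PBS. Members were above cycling cells in each library, by a log2 fold change of 1.49 (edgeR adjusted p = 6.78e-10; mean ± SD of the library log2 ratios 1.41 ± 0.22, n = 5). Lgals3, encoding galectin-3, stood at 1523, 590.5, 530.4, 391 and 103 CPM in members and 901, 131, 245, 207 and 64.1 CPM in cycling cells (log2 fold change 1.27, edgeR adjusted p = 3.16e-05), and the signalling gene Irak2 at 44.6, 76.2, 68.4, 33.0 and 31.0 CPM in members and 21.9, 31.3, 19.3, 12.7 and 13.9 CPM in cycling cells (log2 fold change 1.32, edgeR adjusted p = 8.31e-06). Ifitm2 (log2 fold change 1.23, edgeR adjusted p = 0.000199) and Ifitm1 (log2 fold change 1.29, edgeR adjusted p = 0.0205) were the other leading genes, and the Ifitm1 call was lost with DESeq2, without the library block, after thinning and without IL15 superagonist, and the Ifitm2 call without the block and after thinning.

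Of 18 granule and cytotoxic partner genes, 9 were higher in members than in cycling cells and 0 lower (median log2 fold change 0.44), among them Cst7 (log2 fold change 0.55, edgeR adjusted p = 8.26e-05), Fasl (log2 fold change 0.52, edgeR adjusted p = 0.00164) and Gzma (log2 fold change 0.70, edgeR adjusted p = 0.0115). The call of Cst7 was lost on thinning, and that of Gzma with DESeq2, on thinning, without the library block and without the fusion or the IL15 superagonist library. Of 10 protease inhibitor genes 4 were higher and 0 lower (median log2 fold change 0.33). Gzmb (log2 fold change 0.10, edgeR adjusted p = 0.263), Gzmg (log2 fold change 0.82, edgeR adjusted p = 0.112), Serpine2 (log2 fold change 0.21, edgeR adjusted p = 0.313), Serpinb9b (log2 fold change 0.38, edgeR adjusted p = 0.198) and Irf8 (log2 fold change 0.22, edgeR adjusted p = 0.063) missed the threshold, and Prf1 was higher in members (log2 fold change 0.48, edgeR adjusted p = 0.000175). Lag3, an inhibitory receptor gene, stood at 148, 401, 362, 301 and 279 CPM in members and 103, 203, 226, 186 and 142 CPM in cycling cells, higher in members of each library (log2 fold change 0.82, edgeR adjusted p = 8.40e-06). Pdcd1 (log2 fold change 0.34, edgeR adjusted p = 0.000874), Havcr2 (log2 fold change 0.41, edgeR adjusted p = 0.0121) and the costimulatory receptor gene Icos (log2 fold change 0.92, edgeR adjusted p = 3.25e-06) were higher too. With cells thinned to 2000 UMIs the calls of Lag3, Pdcd1 and Icos were lost, and that of Havcr2 was lost without the anti-PD1 or the fusion library. Of 13 inhibitory receptor genes 10 were higher and 0 lower (median log2 fold change 0.50), of 12 interferon response genes 12 and 0 (0.79), and of 12 costimulatory receptor genes 9 and 0 (0.39). This direction was not particular to those lists. Stem-like and memory genes had 6 and 0 of 10 (0.50), T-cell receptor genes 11 and 0 of 19 (0.34) and trafficking genes 9 and 0 of 18 (0.44). Killer lectin genes had 8 and 0 of 11 (0.64) and cytoskeleton and lysosome genes 13 and 0 of 19 (0.33). Glycolysis genes had 4 and 3 of 18 (0.005) and oxidative phosphorylation genes 0 and 7 of 18 (-0.13).

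Between treatments, values are those of 1 library each. A gene was counted where both libraries together held at least 20 UMIs in members, and called where the CPM differed at least 2-fold. Fusion members against PBS members gave 937 of 10103 genes higher (9.27%) and 1720 lower (17%). Scaled by trimmed means (TMM) the split was 1332 higher and 1254 lower, a shift of 0.216 on the log2 scale. Combination against PBS gave 859 of 6713 higher (12.8%) and 485 lower (7.22%), with a shift of 0.128. IL15 superagonist against PBS gave 716 of 5603 higher (12.8%) and 346 lower (6.18%), anti-PD1 against PBS gave 300 of 3976 higher (7.55%) and 189 lower (4.75%), and fusion against combination gave 647 of 10243 higher (6.32%) and 511 lower (4.99%). The comparisons with PBS share its 21 members. These counts depend on the UMIs asked for. Fusion members held 13610313 UMIs against 193489 in PBS. Genes with fewer than 100 UMIs over both libraries could therefore be called lower in fusion but not higher. With at least 100, 937 of 7443 genes were higher and 933 lower in fusion than in PBS. The counts were then 181 and 50 of 2355 in combination, 109 and 13 of 1532 in IL15 superagonist, and 35 and 9 of 874 in anti-PD1. With cells thinned to 2000 UMIs, 303 of 7012 genes were higher and 1433 lower in fusion. The thinned counts were 298 and 120 of 1622 in combination, 207 and 61 of 1174 in IL15 superagonist, and 41 and 16 of 473 in anti-PD1.

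Ifitm1 and Gzma led the higher genes in the comparisons of fusion, combination and IL15 superagonist with PBS. Ifitm1, an interferon-induced membrane protein gene, stood at 3411, 362, 235, 64.1 and 5.17 CPM in members of fusion, combination, IL15 superagonist, anti-PD1 and PBS, where PBS had 1 UMI. Against PBS it was higher 659.9-fold (95% counting interval 118 to 26066) in fusion, 70.0-fold (95% counting interval 12.5 to 2770.2) in combination, 45.5-fold (95% counting interval 8.08 to 1803) in IL15 superagonist and 12.4-fold (95% counting interval 2.08 to 505) in anti-PD1. The intervals are wide because of that single UMI. In the comparison that does not use PBS, fusion exceeded combination 9.42-fold (95% counting interval 8.71 to 10.2). The order was not particular to members. In low cells, with those carrying markers of other lineages left out, Ifitm1 stood at 1612, 123.6, 106.5, 55.25 and 4.074 CPM, fusion to PBS.

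Gzma stood at 1142, 269, 823, 83.6 and 10.3 CPM in the same members, fusion to PBS, with 2 UMIs in PBS. It was higher than in PBS 110.5-fold (95% counting interval 30.6 to 912) in fusion, 26.0-fold (95% counting interval 7.16 to 216) in combination, 79.6-fold (95% counting interval 22.0 to 658) in IL15 superagonist and 8.08-fold (95% counting interval 2.11 to 68.9) in anti-PD1. Fusion exceeded combination 4.25-fold (95% counting interval 3.87 to 4.67). Low cells of each treated library also had more Gzma than those of PBS, as given above. Gzmb was closer, with fusion above combination 1.44-fold (95% counting interval 1.40 to 1.47).

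Ifitm2 was also among the leading genes in fusion, combination and IL15 superagonist, with 3 UMIs in PBS. It was higher 109-fold (95% counting interval 37.2 to 527) in fusion, 14.6-fold (95% counting interval 4.94 to 70.9) in combination and 14.8-fold (95% counting interval 4.99 to 72.1) in IL15 superagonist. In fusion, Lgals3 was higher 14.7-fold (95% counting interval 9.54 to 24.1) and Ifitm3 at least 28.0-fold, with 0 UMIs in PBS. Low cells without markers of other lineages went the same way. They held Ifitm2 at 997.4, Ifitm3 at 262.8 and Lgals3 at 1302 CPM in fusion, against 2.716, 7.129 and 140.2 CPM in PBS. In IL15 superagonist, the chemokine genes Ccl1, at 698 against 25.8 CPM, and Xcl1, at 567 against 31.0 CPM, were higher 27.01-fold (95% counting interval 11.5 to 83.4) and 18.3-fold (95% counting interval 8.35 to 50.04). In anti-PD1, the heat shock gene Hspa1a was higher at least 14.04-fold (112 against 0 UMIs), and the chemokine gene Cxcl2 10.2-fold (95% counting interval 2.68 to 86.0). In combination, the MHC class II gene H2-Aa was higher 25.3-fold (95% counting interval 6.96 to 209.5). MHC class II genes are not typical of mouse T cells, and 96.1% of the 2463 class II UMIs of combination members came from 5 cells.

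Among genes lower than in PBS, Penk stood at 3.97 against 196 CPM in fusion and PBS members, lower 49.5-fold (31.8 to 76.4). Ccr7, a lymph node homing receptor gene, stood at 9.33 against 181 CPM, lower 19.4-fold (12.9 to 28.4), and Kit, a growth factor receptor gene, was lower 20.8-fold (10.3 to 39.3) in fusion and 5.29-fold (2.45 to 11.0) in combination. Tff1 and Xlr were lower in fusion 65.9-fold (30.4 to 142) and 19.0-fold (8.43 to 39.0). Spp1 was lower in combination 5.06-fold (4.19 to 6.11) and in anti-PD1 4.48-fold (3.50 to 5.76), at 181 and 204 CPM against 915 CPM in PBS. In PBS, 82 Spp1 UMIs came from the 2 members with at least 100 granzyme C-F UMIs (3507 CPM). The PBS members with 3 to 9, 10 to 29 and 30 to 99 stood at 410, 801 and 537 CPM. Scd2, a fatty acid desaturase gene, was lower in combination 7.61-fold (3.74 to 15.3) and in IL15 superagonist 6.82-fold (3.12 to 15.3).

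**Figure D5:**
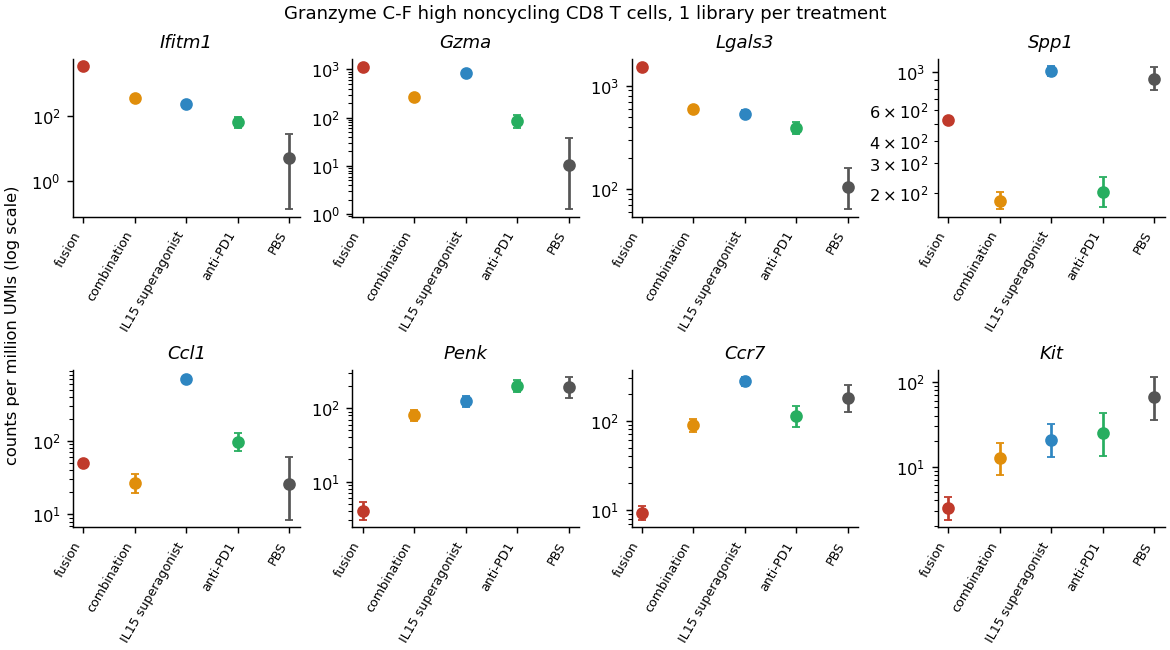
CPM of Ifitm1, Gzma, Lgals3, Spp1, Ccl1, Penk, Ccr7 and Kit in members of each library (log scale, fusion to PBS), with exact Poisson 95% intervals of counting error. Ifitm1 spans 3411 CPM in fusion to 5.17 CPM in PBS, and Penk and Ccr7 are at 3.97 and 9.33 CPM in fusion against 196 and 181 CPM in PBS.

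Fusion and combination deliver anti-PD1 with an IL-15 agent as 1 molecule and as separate agents, and their comparison does not involve PBS. Of 30 cell cycle genes counted, 19 were at least 2-fold higher in fusion and 0 lower (median log2 ratio 1.21), against 6.32 and 4.99% of all genes. The histone gene Hist1h1b was higher 21.2-fold (95% counting interval 5.82 to 176) and the mitotic kinase gene Aurkb 13.1-fold (95% counting interval 2.30 to 523), on 2 and 1 UMIs in combination. Birc5, at 78.2 against 24.2 CPM, was higher 3.23-fold (95% counting interval 2.37 to 4.51). Cycling cells were also 51.2% of CD8 T cells in fusion and 11.5% in combination, and members were taken below a fixed limit of cycling UMIs.

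Of 21 transcription factor genes 0 were at least 2-fold higher in fusion than in combination and 6 were lower (median log2 ratio -0.82), and of 16 inhibitory receptor genes 0 and 4 (-0.47). Tox, a factor of exhausted T cells, stood at 57.3 against 165 CPM, lower 2.88-fold (2.51 to 3.30), and Lag3 at 148 against 401 CPM, lower 2.70-fold (2.48 to 2.95). The chemokine genes Ccl3, at 58.0 against 625 CPM, and Ccl5, at 2467 against 9264 CPM, were lower 10.8-fold (9.82 to 11.8) and 3.76-fold (3.69 to 3.83). The genes with the largest ratio lower in fusion were the neutrophil genes S100a8 (1 against 37 UMIs) and S100a9 (5 against 69 UMIs), the class II genes H2-Eb1 and H2-Aa, and Plbd1, which ranked between them. Members with markers of another lineage were 6.07% in fusion, 8.65% in combination, 15.5% in IL15 superagonist, 15.7% in anti-PD1 and 28.6% in PBS, and with these cells left out the counts of fusion against combination were 723 higher and 476 lower.

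The leading T-cell receptor beta V segment of members was more frequent in them than in low cells in fusion, combination and IL15 superagonist, with intervals that did not overlap. Segments were assigned to cells with at least 2 UMIs of a segment. In fusion, Trbv16 was the segment of 22.8% of 1080 assigned members (20.3 to 25.4), against 9.37% of low cells (7.80 to 11.1) and 20.2% of cycling granzyme C-F high cells (18.2 to 22.3). In combination, Trbv19 was that of 33.3% of members (23.7 to 44.1), against 19.8% of low cells (18.0 to 21.7) and 27.7% of cycling cells (15.6 to 42.6), with 48.6% of members and 73.5% of low cells assigned. In IL15 superagonist, Trbv1 was that of 34.3% of members (25.1 to 44.6), against 8.43% of low cells (6.95 to 10.1) and 18.3% of cycling cells (9.52 to 30.4). In anti-PD1, Trbv16 was that of 27.5% of members (14.6 to 43.9), against 19.0% of low cells, with overlapping intervals. In PBS, 5 of 21 members were assigned, too few for a share. The segment named is the most frequent among members of its library, so these are descriptions of 1 library each, and V segments do not identify clones.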

How the data were processed

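Live CD45+ cells in 5 libraries, 1 per treatment, were profiled with a 10x Genomics 5' kit and a NovaSeq instrument, per the labels' protocols. UMI counts per gene and barcode were deposited by the authors, made with Cell Ranger 2.1.1 on mm10, per the submitters' processing notes; neither the gene annotation used nor the counting of reads that paralogs share is stated there. The files hold 28692 genes (58 symbols are repeated), without normalization.

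Members and comparison classes were cut by the UMI limits stated in the report. No doublet caller was run; cells with a Csf1r, C1qa or Cd79a UMI were left out, and 32 members held over 20000 UMIs. UMIs were summed per library and class. Class comparisons used edgeR 4.0.16 in R 4.3.3 (quasi-likelihood test, TMM scaling, library as block, Benjamini-Hochberg adjustment over all genes tested, limit 0.05), leaving out the 15 selecting genes. The library block pairs classes of the same library, that is, of the same cells' source. edgeR gives no standard error, so the SD of the 5 library log2 ratios is given; those ratios used a prior count of 0.5. The scripts were tested on simulated data. Treatments had 1 library each and no test; ratios of CPM have exact conditional intervals and shares have Clopper-Pearson intervals at 95%, all for counting error only. A class at 0 UMIs was set to a floor of 3 counts per library. Whether libraries came from separate animals is not given, so p-values measure only the spread between these libraries.

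The members and the 25 gene lists were chosen with earlier results of these data known, so list counts are not independent support. Leading genes were the 10 higher and 10 lower of largest fold change against low cells and the 5 higher against cycling cells, with an adjusted p under 0.05, 1 direction in all 5 libraries and a mean of at least 50 CPM in the higher class. For treatments they were the 5 higher and 5 lower of largest ratio with at least 30 UMIs and an interval excluding equal levels. Receptor segments, ribosomal, mitochondrial and predicted genes were left out. Genes of the lists are named in addition. Alternatives were DESeq2 1.42.0, no block, each library left out, other UMI and mitochondrial limits, cells with other lineages' markers left out, other scaling, and cells thinned to 2000 UMIs. Shares and treatment counts of thinned cells kept the cycling limit on all UMIs. Class comparisons of thinned cells applied it to the thinned UMIs unless stated. Promoter windows were read from RefSeq sequences with Python 3.11.15 and biopython 1.88.
One result is not reported here.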

Additional observations from a re-analysis of the deposited data

Results flagged for a closer look

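For some genes the ratio of CPM in members over granzyme C-F low cells lay above 1 in some libraries and below 1 in others; the difference between libraries was not tested. Ifitm1 had ratios of 2.123 in fusion, 2.233 in combination, 2.287 in IL15 superagonist, 0.3477 in anti-PD1 and 0.1428 in PBS, where members had 1 UMI. With cells carrying markers of other lineages left out, the Ifitm1 ratios were 2.102, 2.703, 2.406, 1.237 and 1.928 in that order of libraries, so the values below 1 were not seen there. Lgals3 had ratios of 1.142 in fusion, 1.204 in combination, 1.444 in IL15 superagonist, 0.8129 in anti-PD1 and 0.5293 in PBS. Without those cells they were 1.159, 1.126, 1.337, 1.228 and 0.6161.

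Serpinb6b, a serpin gene, had ratios of 0.9466 in fusion, 1.108 in combination, 1.631 in IL15 superagonist, 1.439 in anti-PD1 and 1.938 in PBS. The actin-binding thymosin genes had ratios of 0.9811 (Tmsb4x) and 0.8916 (Tmsb10) in fusion, 1.229 and 0.8998 in combination, 1.29 and 0.9491 in IL15 superagonist, 1.319 and 1.258 in anti-PD1, and 1.056 and 1.38 in PBS. Eef1a1, a translation factor gene, had ratios of 0.932 in fusion, 1.127 in combination, 1.07 in IL15 superagonist, 1.084 in anti-PD1 and 1.108 in PBS.

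Cells outside the CD8 gate also held at least 3 granzyme C-F UMIs more often in fusion than in PBS. The share was 36.73% of NK cells in fusion against 13.3% in PBS, 10.26% of CD4 T cells against 0.488%, and 13.74% of T cells without Cd4 or Cd8 UMIs against 1.81%. It was 50.62% of CD8 T cells with a Csf1r, C1qa or Cd79a UMI in fusion against 6.98% in PBS, and 2.296% of myeloid or B cells against 0.194%. The CD4 shares rest on 4 of 39 cells in fusion (2.87 to 24.2%) and 1 of 205 in PBS (0.0123 to 2.69%). At least 1 granzyme C-F UMI was held by 53.8% of CD4 T cells and 44.1% of myeloid or B cells in fusion. The part of free RNA in these shares was not tested.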

How the results depend on the processing

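Against low cells, the 722 higher and 951 lower of 9461 genes became 51 and 147 without the library block. They were 211 and 379 of 8044 with cells thinned to 2000 UMIs and the cycling limit on the thinned UMIs. They were 138 and 289 of 7524 with thinned cells and the cycling limit on all UMIs. The last is an alternative chosen after seeing the data for both class comparisons. Leaving out 1 library gave 400 to 811 higher and 614 to 893 lower, fewest without combination; DESeq2 gave 604 and 642. Against cycling cells, 906 higher and 1036 lower of 7169 genes became 216 and 579 without the block. They were 4 and 31 of 842 thinned, and 102 and 105 of 874 with the added thinning. With 1 library left out they were 527 to 805 and 780 to 1059, and DESeq2 gave 690 and 833. The causes were not tested, but thinning also leaves fewer UMIs. Of 1133 values of 81 named genes against low cells, 1019 kept their side of the threshold (14 of them, never called, had the other sign), 96 lost the call, 17 gained one and 1 reversed with a call; of 666 values of 60 genes against cycling cells these were 562 (31), 91, 12 and 1. The reversals that involved a call were Ifitm3 against low cells, 0.89 with cells of other lineages' markers left out (edgeR adjusted p = 2.90e-05) against -0.14, and Areg against cycling cells, -0.042 with the added thinning (edgeR adjusted p = 0.910) against 0.38.

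Shares in fusion, combination, IL15 superagonist, anti-PD1 and PBS were 36.4, 4.18, 4.66, 2.90 and 1.86% thinned and 36.0, 4.14, 4.11, 3.03 and 1.63% at 10 granzyme UMIs; at 2 UMIs fusion had 57.0% and combination 8.28%. Genes higher and lower than in PBS with thinned cells were 303 and 1433 of 7012 in fusion. They were 298 and 120 of 1622 in combination, 207 and 61 of 1174 in IL15 superagonist and 41 and 16 of 473 in anti-PD1. At 100 UMIs over both libraries they were 181 and 50, 109 and 13, and 35 and 9 in these 3, 933 were lower in fusion, and fusion against combination had 292 and 205. With anti-PD1 in place of PBS they were 458 and 213 in combination and 441 and 177 in IL15 superagonist, and 898 were lower in fusion. At 10 granzyme UMIs, 182 were higher in anti-PD1. No paired analysis was possible because each treatment has 1 library; the class comparisons carry the library block. Precision is limited by the 21 PBS members.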
